A study of Rattus norvegicus with 9 samples.

Results

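The genes described here encode RGS proteins, the regulators of G protein signaling, in cultured rat aortic smooth muscle cells (RASMC). Of the 10 genes *Rgs2*, *Rgs3*, *Rgs4*, *Rgs5*, *Rgs10*, *Rgs12*, *Rgs14*, *Rgs16*, *Rgs17* and *Rgs19*, a member was kept where a probe set of the array was annotated with its symbol and no other. This gave 9 members, with 1 probe set each, of the 14324 genes measured in this way on 27342 probe sets. *Rgs10* was not measured, because its only probe set is also annotated with *Tial1*.

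RASMC from a commercial source were used at fewer than 10 passages, grown in DMEM with 10% FBS and made quiescent for 24 hr at 0.2% FBS. They were then kept for 6 hr at 37 °C in K+-free DMEM, in DMEM with 3 mM ouabain, or in control DMEM. Ouabain blocks the Na+,K+-ATPase, the pump that exchanges internal Na+ for external K+, and the pump also stops when external K+ is absent, so both treatments raise the ratio of internal Na+ to K+. RNA of 3 independent experiments per condition was read on 9 arrays of the Affymetrix Rat Gene 1.0 ST type, and every value below is a log2 signal. The cells were a culture, and a lower signal in such bulk RNA does not tell fewer expressing cells from less RNA per cell.

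G protein-coupled receptors act by loading the alpha subunit of a heterotrimeric G protein with GTP, and RGS proteins speed the hydrolysis of that GTP and so end the signal. In arterial smooth muscle the receptors for angiotensin II, endothelin, vasopressin, serotonin and nucleotides constrict the vessel mainly through Gq and G12/13, and RGS proteins of the R4 subfamily limit these signals. The R4 subfamily (*Rgs2*, *Rgs3*, *Rgs4*, *Rgs5*, *Rgs16*) holds mostly short proteins that act on Gi and Gq, the R12 subfamily (*Rgs10*, *Rgs12*, *Rgs14*) acts on Gi, and the RZ subfamily (*Rgs17*, *Rgs19*) carries a palmitoylated cysteine string and acts on Gi and Gz.

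The 9 arrays were alike in scale, with medians from 6.76 to 6.80. Replicates correlated at r = 0.996 to 0.998 across probe sets, and the distance between any pair of replicates (20.7 to 32.9) was smaller than that between any pair of arrays from different conditions (49.4 to 86.8), so no array stood apart from its label. Of 9 smooth muscle markers 8 were measured, and 7 of these lay above the array median of 6.78. All 3 endothelial markers measured of 6 lay below it. Of the 6 macrophage and leukocyte markers, *Cd14* (8.54) and *Cd68* (7.21) lay above it and the other four, among them the pan-leukocyte marker *Ptprc* (5.65), below it. *Cd68* and *Cd14* were called as higher in both treatments, by 0.94 and 0.43 in K+-free medium and by 1.29 and 1.27 in ouabain, and so was *Csf1r*. Of the endothelial markers, *Cdh5* was also called as higher, by 0.29 in K+-free medium and 0.40 in ouabain. The smooth muscle markers averaged 10.04 to 10.07 per array in K+-free medium, 9.91 to 10.01 in ouabain and 10.39 to 10.42 in control cells. Of these, 3 were called as lower in K+-free medium, 6 in ouabain, and 0 as higher in either. The largest falls were those of *Lmod1* (-1.48 in K+-free medium and -1.61 in ouabain) and *Myh11* (-0.62 in K+-free medium and -0.69 in ouabain). The 6 macrophage and leukocyte markers averaged 6.43 to 6.52 in K+-free medium, 6.63 to 6.67 in ouabain and 6.07 to 6.14 in control cells. The 4 fibroblast markers averaged 8.72 to 8.73 in K+-free medium, 8.31 to 8.40 in ouabain and 8.18 to 8.28 in control cells. Of these, *Pdgfra* (1.30) and *Lum* (0.29) were called as higher than control in K+-free medium and 0 in ouabain. The part of these shifts in the RGS values was not tested.

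A gene was called where limma gave a Benjamini-Hochberg adjusted p below 0.05 over all 27341 probe sets that varied, and the fold change exceeded 1.2. In K+-free medium 5 of the 9 RGS genes rose against control, 4 fell and 0 missed the call, while 34.0% of all probe sets were called, 16.1% up and 17.9% down, and 41.7% of the 14323 varying genes with a single-symbol probe set, 17.8% up and 24.0% down. In ouabain 4 rose, 3 fell and 2 were not called, against 32.5% of all probe sets, 15.8% up and 16.8% down, and 40.2% of single-symbol genes, 17.5% up and 22.7% down. The median absolute log2 change of the RGS genes was 0.46 in K+-free medium and 0.34 in ouabain, beside 0.17 over all probe sets in either comparison and 0.21 and 0.20 over single-symbol genes. Their median signed change was 0.29 in K+-free medium and -0.04 in ouabain, beside 0.06 and 0.07 over all probe sets, so the set as a whole had no common direction. Both comparisons use the same 3 control arrays. The members were chosen with earlier results of these data known, so these counts do not describe the RGS family as a whole. Of 8 other RGS genes measured, 3 were called in K+-free medium and 3 in ouabain, all as higher.

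The counts by direction depend on the scaling. After centring the arrays on *B2m*, the reference gene of the study's RT-PCR, 3 RGS genes rose and 4 fell in K+-free medium, and 1 rose and 4 fell in ouabain. Over all probe sets that scaling called 2375 up and 7063 down in K+-free medium, in place of 4393 and 4890, and 2167 up and 6224 down in ouabain, in place of 4313 and 4583. *B2m* itself was 0.16 higher in K+-free medium and 0.15 higher in ouabain, and this is the amount by which every change drops under that scaling. With 3 arrays against 3, an exact permutation test of a single gene cannot go below p = 0.1, so p-values are given from the fit across all probe sets.

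**Figure D1:**
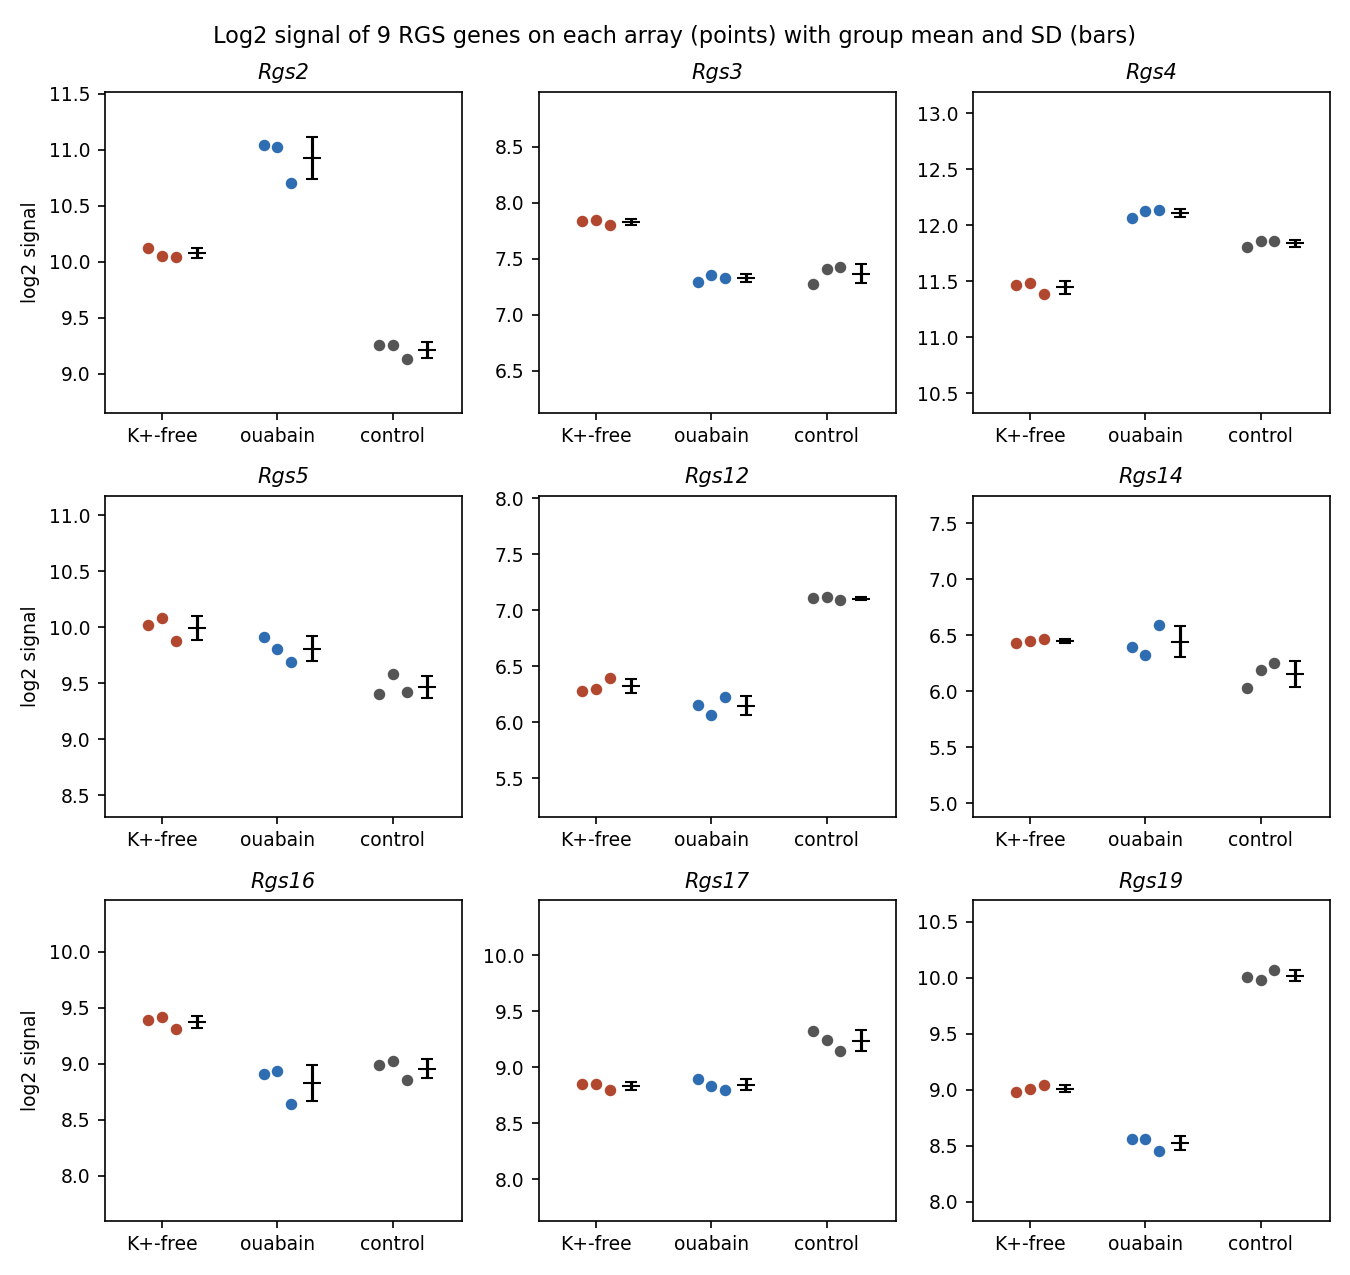
Log2 signal of the 9 RGS genes on each of the 9 arrays, in K+-free medium (red), ouabain (blue) and control medium (grey), with the group mean and SD as bars. All panels span the same number of log2 units: *Rgs2* was highest in ouabain and *Rgs19* lowest there, and *Rgs4* lay below control in K+-free medium and above it in ouabain.

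Among the R4 genes, *Rgs2* had the largest rise. Its protein prefers Gq, and in vascular smooth muscle it is activated by the cGMP-dependent kinase of the nitric oxide pathway. *Rgs2* had log2 signals of 10.13, 10.05 and 10.04 in K+-free medium, 11.04, 11.02 and 10.70 in ouabain, and 9.25, 9.25 and 9.13 in control cells. The 3 conditions did not overlap anywhere, with ouabain on top and control at the bottom. The rise was 1.82-fold in K+-free medium (log2 change 0.86, SE 0.085, limma adjusted p = 7.0e-06) and 3.27-fold in ouabain (1.71, SE 0.085, adjusted p = 3.9e-08). K+-free cells had 1.80-fold less *Rgs2* signal than ouabain cells (log2 difference -0.85, adjusted p = 3.4e-05).

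*Rgs5*, whose transcript marks pericytes and arterial smooth muscle and whose protein acts on Gi and Gq, rose in both treatments. It had 10.02, 10.08 and 9.87 in K+-free medium, 9.91, 9.81 and 9.69 in ouabain, and 9.40, 9.58 and 9.42 in control cells. All treated arrays lay above all control arrays, and the treated conditions overlapped. The log2 change was 0.52 in K+-free medium (1.44-fold, SE 0.078, limma adjusted p = 0.00020) and 0.34 in ouabain (1.26-fold, adjusted p = 0.0047). The difference between the treatments, 0.19 with a 95% interval from 0.01 to 0.36, missed the call (adjusted p = 0.13). Centring on *B2m* ended the call in ouabain (0.18). The 4 pericyte markers averaged 9.13 to 9.15 per array in K+-free medium, 8.91 to 9.06 in ouabain and 9.25 to 9.43 in control cells. Against control, *Abcc9* rose (0.43) and *Cspg4* fell (-1.05) in K+-free medium, *Cspg4* (-0.87) and *Kcnj8* (-0.60) fell in ouabain, and *Kcnj8* was 0.55 above ouabain in K+-free cells. The part of these markers in the *Rgs5* values was not tested.

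*Rgs4*, a regulator of Gi and Gq, moved in opposite directions. It had 11.47, 11.49 and 11.38 in K+-free medium, 12.07, 12.13 and 12.13 in ouabain, and 11.80, 11.86 and 11.86 in control cells. Every K+-free array was below, and every ouabain array above, every control array. *Rgs4* fell 1.32-fold in K+-free medium (log2 change -0.40, SE 0.051, limma adjusted p = 6.4e-05) and rose 1.2-fold in ouabain (0.27, adjusted p = 0.0013). The difference between the treatments was 1.58-fold (-0.66, 95% interval -0.78 to -0.55, adjusted p = 5.0e-06). The rise in ouabain was just past the fold limit, and its call was lost without control replicate 1 (0.25), without ouabain replicate 2 (0.26) or 3 (0.26), and after quantile normalisation (0.22) or centring on *B2m* (0.12).

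*Rgs3* and *Rgs16* were called in K+-free medium and not in ouabain. *Rgs3*, which is made in several forms and has 17 RefSeq transcripts in the rat, had 7.84, 7.84 and 7.80 in K+-free medium, 7.29, 7.36 and 7.33 in ouabain, and 7.27, 7.40 and 7.42 in control cells. *Rgs16*, a regulator of Gi and Gq, had 9.39, 9.42 and 9.31 in K+-free medium, 8.91, 8.94 and 8.64 in ouabain, and 8.98, 9.02 and 8.86 in control cells. For both genes the K+-free arrays lay above all others, and the ouabain and control arrays overlapped.

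The rise of *Rgs3* in K+-free medium was 1.38-fold (log2 change 0.46, SE 0.055, limma adjusted p = 3.3e-05) and that of *Rgs16* 1.34-fold (0.42, SE 0.081, adjusted p = 0.0013). In ouabain *Rgs3* differed from control by -0.04 (95% interval -0.16 to 0.08, adjusted p = 0.57) and *Rgs16* by -0.13 (-0.30 to 0.05, adjusted p = 0.23), and both signs turned when the arrays were quantile normalised again (0.10 for *Rgs3* and 0.07 for *Rgs16*). Between the treatments, *Rgs3* was 1.42-fold (0.50, limma adjusted p = 6.2e-05) and *Rgs16* 1.46-fold (0.54, adjusted p = 0.00051) above ouabain in K+-free cells. Centring on *B2m* ended the call of *Rgs16* in K+-free medium (0.26) and gave it one as lower in ouabain (-0.28).

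The R12 genes went opposite ways. *Rgs12*, a scaffold whose long form binds Ras and carries a GoLoco motif for GDP-bound Gi, had 6.27, 6.30 and 6.39 in K+-free medium, 6.15, 6.06 and 6.23 in ouabain, and 7.10, 7.11 and 7.09 in control cells. All treated arrays were lower than all control arrays. *Rgs12* fell 1.72-fold in K+-free medium (log2 change -0.78, SE 0.058, limma adjusted p = 6.2e-07) and 1.94-fold in ouabain (-0.96, adjusted p = 1.5e-07). The K+-free arrays were all above the ouabain arrays, and that difference of 0.18 (95% interval 0.05 to 0.30) fell short of the call (adjusted p = 0.052).

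*Rgs14*, which also carries a GoLoco motif and Ras-binding domains, had 6.43, 6.45 and 6.46 in K+-free medium, 6.40, 6.33 and 6.59 in ouabain, and 6.03, 6.19 and 6.25 in control cells. All treated arrays lay above all control arrays, and ouabain replicate 3 was the highest. The rise was 1.22-fold in either treatment (log2 change 0.29 in K+-free medium and 0.28 in ouabain, SE 0.078, limma adjusted p = 0.010 and 0.012), just past the fold limit, and the treatments differed by 0.01 (95% interval -0.16 to 0.18). Without control replicate 1 both calls were lost (0.23 in K+-free medium and 0.22 in ouabain), and without ouabain replicate 3 the call in ouabain was lost (0.21). Both calls were also lost after quantile normalisation (0.20 in K+-free medium and 0.19 in ouabain) and after centring on *B2m* (0.13 in either treatment). The mean signals of *Rgs14* (6.35) and *Rgs12* (6.52) lay below the array median, where unspecific signal, which these values do not separate out, makes folds smaller than the change in RNA.

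Both RZ genes fell. *Rgs19*, known as GAIP from its binding to Gi3, had 8.98, 9.01 and 9.04 in K+-free medium, 8.56, 8.56 and 8.45 in ouabain, and 10.00, 9.98 and 10.07 in control cells. The 3 conditions were fully separate, with control on top and ouabain at the bottom. *Rgs19* fell 2.01-fold in K+-free medium (log2 change -1.01, SE 0.053, limma adjusted p = 4.4e-08) and 2.82-fold in ouabain (-1.49, SE 0.053, adjusted p = 4.9e-09). K+-free cells had 1.40-fold more *Rgs19* signal than ouabain cells (log2 difference 0.48, limma adjusted p = 6.2e-05).

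*Rgs17*, a regulator of Gi and Gz, had 8.85, 8.85 and 8.80 in K+-free medium, 8.90, 8.83 and 8.80 in ouabain, and 9.33, 9.24 and 9.15 in control cells. The treated conditions overlapped and all their arrays were below control. The fall was close to 1.32-fold in both (log2 change -0.41 in K+-free medium, limma adjusted p = 0.00015, and -0.40 in ouabain, adjusted p = 0.00019), and the interval of the difference between treatments ran from -0.14 to 0.12. After quantile normalisation *Rgs17* no longer passed the fold limit of 1.2 in either treatment (log2 change -0.26 in K+-free medium and -0.23 in ouabain).

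**Figure D2:**
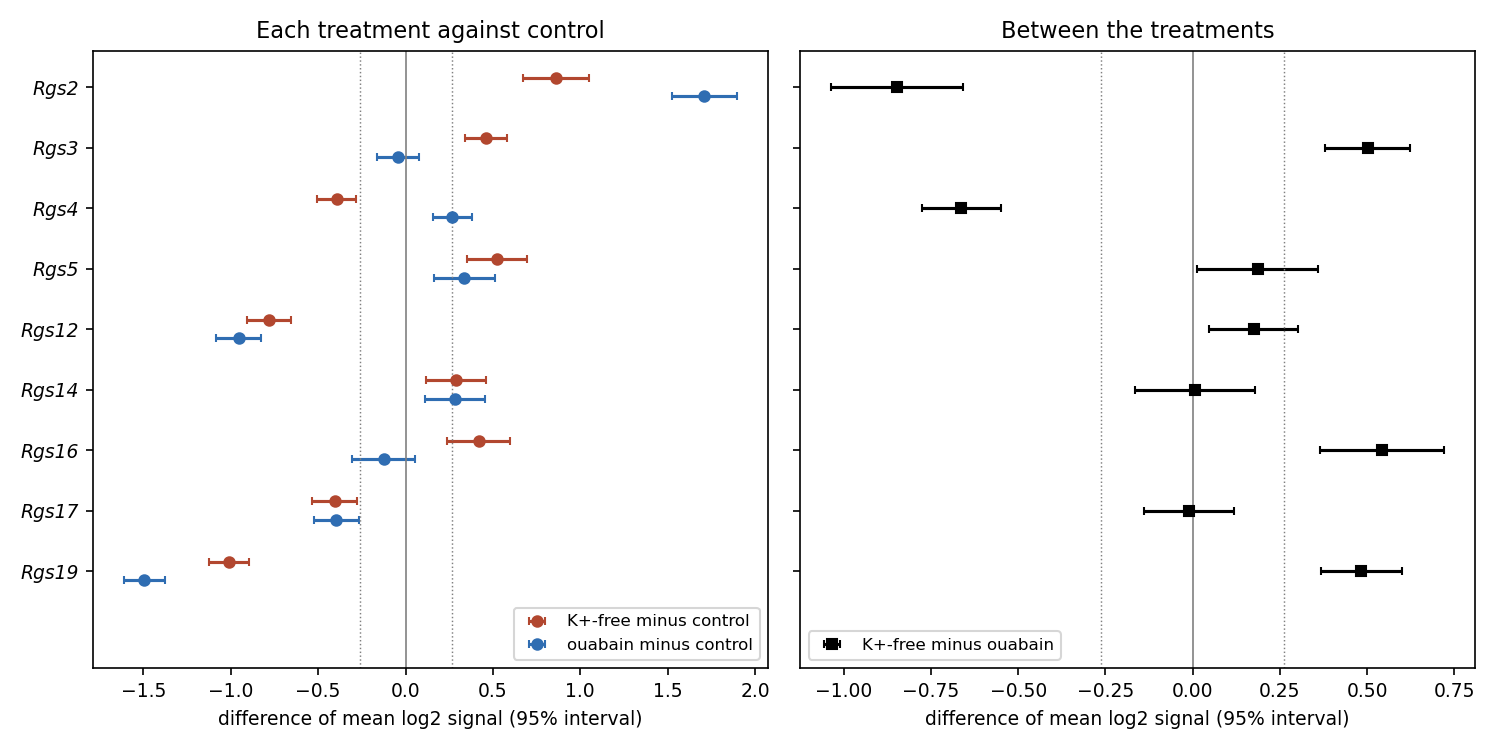
Difference of mean log2 signal for each RGS gene with its 95% interval, for K+-free medium minus control (red) and ouabain minus control (blue) on the left, and K+-free medium minus ouabain (black) on the right. Dotted lines mark the fold limit of 1.2 in either direction. Against control, *Rgs2* had the largest rises and *Rgs19* the largest falls, and *Rgs4* is the gene whose intervals lie on opposite sides of 0.

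Set directly against ouabain, K+-free medium gave higher signals of *Rgs3*, *Rgs16* and *Rgs19* and lower signals of *Rgs2* and *Rgs4*. These 5 calls of 9 stand beside 16.4% of all probe sets called between the treatments, 8.46% up and 7.97% down, and 21.6% of single-symbol genes, 10.9% up and 10.7% down. Of the 8 other RGS genes measured, 2 were called between the treatments, 2 up and 0 down. The arrays of the treatments did not overlap for 6 RGS genes, beside 32.4% of all probe sets and 40.0% of single-symbol genes. Against control, the arrays did not overlap for 9 RGS genes in K+-free medium and 7 in ouabain, beside 57.1% of all probe sets in K+-free medium and 54.2% in ouabain, and 65.6% and 63.1% of single-symbol genes. The median absolute difference between the treatments was 0.48 over the RGS genes, 0.088 over all probe sets and 0.10 over single-symbol genes.

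*Rgs4* and *Rgs5* are adjacent on chromosome 13 in the RefSeq annotation of GRCr8, with 0 genes between them, and are transcribed from opposite strands. In K+-free medium the first was lower and the second higher than in control. *Rgs16* lies next to *Rgs8* on the same chromosome, and both had called rises in K+-free medium and no call in ouabain. *Rgs8*, another R4 gene, had 7.06, 7.07 and 7.03 in K+-free medium, 6.72, 6.58 and 6.66 in ouabain, and 6.79, 6.57 and 6.58 in control cells, a log2 change of 0.41 in K+-free medium (limma adjusted p = 0.00049), which centring on *B2m* left below the fold limit (0.25).

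The 250 bases upstream of the RefSeq start (GRCr8) are shown for *Rgs2* and *Rgs19*, the genes with the largest rise and fall, and for the neighbours *Rgs4* and *Rgs5*. They read 5′ to 3′ on the strand of the gene. Capitals mark matches on either strand to motifs named below. The lines are *Rgs2*, chr13:58352667-58352916, minus strand; *Rgs19*, chr3:189187288-189187537, minus strand; *Rgs4*, chr13:84475885-84476134, minus strand; and *Rgs5*, chr13:84380827-84381076, plus strand.
Rgs2: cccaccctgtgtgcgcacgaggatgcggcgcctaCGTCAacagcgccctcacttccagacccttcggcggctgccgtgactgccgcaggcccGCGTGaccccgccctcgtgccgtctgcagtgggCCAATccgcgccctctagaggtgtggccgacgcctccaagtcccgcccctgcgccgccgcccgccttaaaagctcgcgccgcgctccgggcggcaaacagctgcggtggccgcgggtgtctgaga
Rgs19: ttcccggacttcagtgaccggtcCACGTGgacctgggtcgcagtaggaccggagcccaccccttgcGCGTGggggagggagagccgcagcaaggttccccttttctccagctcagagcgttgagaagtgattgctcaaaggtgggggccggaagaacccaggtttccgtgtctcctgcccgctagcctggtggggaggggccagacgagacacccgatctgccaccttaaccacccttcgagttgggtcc
Rgs4: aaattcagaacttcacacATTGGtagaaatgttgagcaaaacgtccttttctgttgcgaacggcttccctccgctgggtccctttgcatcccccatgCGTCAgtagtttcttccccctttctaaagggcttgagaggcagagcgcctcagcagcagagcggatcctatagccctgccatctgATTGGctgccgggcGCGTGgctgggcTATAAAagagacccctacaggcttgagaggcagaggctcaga
Rgs5: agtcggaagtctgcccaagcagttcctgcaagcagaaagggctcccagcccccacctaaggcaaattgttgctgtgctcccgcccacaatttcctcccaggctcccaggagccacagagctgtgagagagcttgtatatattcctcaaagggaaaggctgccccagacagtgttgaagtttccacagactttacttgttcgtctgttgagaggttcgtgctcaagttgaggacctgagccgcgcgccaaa

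The letters searched for were TGACG (from the cAMP response element, CRE), TGACTCA or TGAGTCA (the AP-1 site), TATAAA (the TATA box) and CCAAT. The search also took in ACGTG and, with another first letter, GCGTG (the core of the hypoxia response element). The CArG box of serum response factor and the NF-kB site were included, and each motif was searched on both strands. All 9 RGS genes matched a RefSeq promoter. The TGACG letters stood in the promoters of *Rgs2*, *Rgs3* and *Rgs4*, 3 of 9, beside 18.2% of all 33469 promoters of the same length. A hypoxia core was found in 7 of 9 against 36.7% of all, CCAAT in 3 against 34.0%, TATAAA in 2 (*Rgs3* and *Rgs4*) against 12.9%, and the AP-1 letters in 2 (*Rgs12* and *Rgs17*) against 4.05%. The NF-kB letters stood in *Rgs14* alone (3.54% of all) and the CArG letters in 0 of the 9 (1.5% of all).

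In *Rgs2* the CRE letters lay 216 to 212 bases before the start, and in *Rgs4* 153 to 149 bases before it, with a TATA box at 42 to 37. *Rgs5* held none of the motifs. The *Rgs19* sequence holds CACGTG, which is a hypoxia core on either strand. A match is a stretch of letters and does not show that a factor binds there. The *Rgs2* sequence had 72.4% G and C, that of *Rgs19* 63.6% and those of *Rgs4* and *Rgs5* 54.4% each, against a median of 51.2% over all promoters. The promoters of all 9 RGS genes lay above that median. The motif shares over all promoters, such as that of the hypoxia core, which contains CG, were not matched for G and C.

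Other RGS genes were a separate list, of which 8 of 12 were measured. In K+-free medium 3 rose and 0 fell (median log2 change 0.15), and in ouabain 3 rose and 0 fell (0.01). *Rgs9* and *Rgs11* belong to the R7 subfamily, whose proteins are stable only when bound to the G protein beta subunit encoded by *Gnb5* and are anchored to the membrane by the protein of *Rgs7bp*.

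*Rgs9* had 7.46, 7.26 and 7.48 in K+-free medium, 6.73, 6.79 and 6.82 in ouabain, and 6.38, 6.35 and 6.41 in control cells. Its log2 change was 1.02 in K+-free medium (limma adjusted p = 2.1e-07) and 0.40 in ouabain (adjusted p = 0.00040), and K+-free medium minus ouabain was 0.62 (adjusted p = 5.1e-05). *Rgs11* rose by 0.30 in K+-free medium (adjusted p = 0.0051) and 0.36 in ouabain (adjusted p = 0.0015). The call of *Rgs11* in K+-free medium was lost without control replicate 2 (0.26) and after quantile normalisation (0.21). Centring on *B2m* ended the call of *Rgs9* in ouabain (0.25) and those of *Rgs11* in both treatments (0.14 in K+-free medium and 0.21 in ouabain).

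*Gnb5* had 6.77, 6.67 and 6.79 in K+-free medium, 6.97, 6.99 and 6.90 in ouabain, and 8.43, 8.38 and 8.23 in control cells. Its fall, -1.61 in K+-free medium (limma adjusted p = 6.9e-09) and -1.40 in ouabain (adjusted p = 2.4e-08), was the largest among the 14 beta and gamma subunit genes measured. *Rgs7bp* fell by 0.34 (limma adjusted p = 0.00026) in K+-free medium and by 0.85 (adjusted p = 1.7e-07) in ouabain. The call of *Rgs7bp* in K+-free medium was lost after quantile normalisation (-0.22). Signals of *Rgs9* and *Rgs11* were thus higher, and those of *Gnb5* and *Rgs7bp* lower, than in control in both treatments. *Rgs9bp*, the gene of another RGS-binding protein, was not called in either (0.16 in K+-free medium and 0.09 in ouabain). The remaining R7 genes *Rgs6* and *Rgs7* were not called in either treatment. The mean signals of *Rgs11* (6.38), *Rgs9bp* (5.91), *Rgs7* (5.56) and *Rgs6* (5.22) lay below the array median. For *Rgs6*, *Rgs7* and *Rgs9bp* the missing call does not show that the RNA was unchanged.

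**Figure D3:**
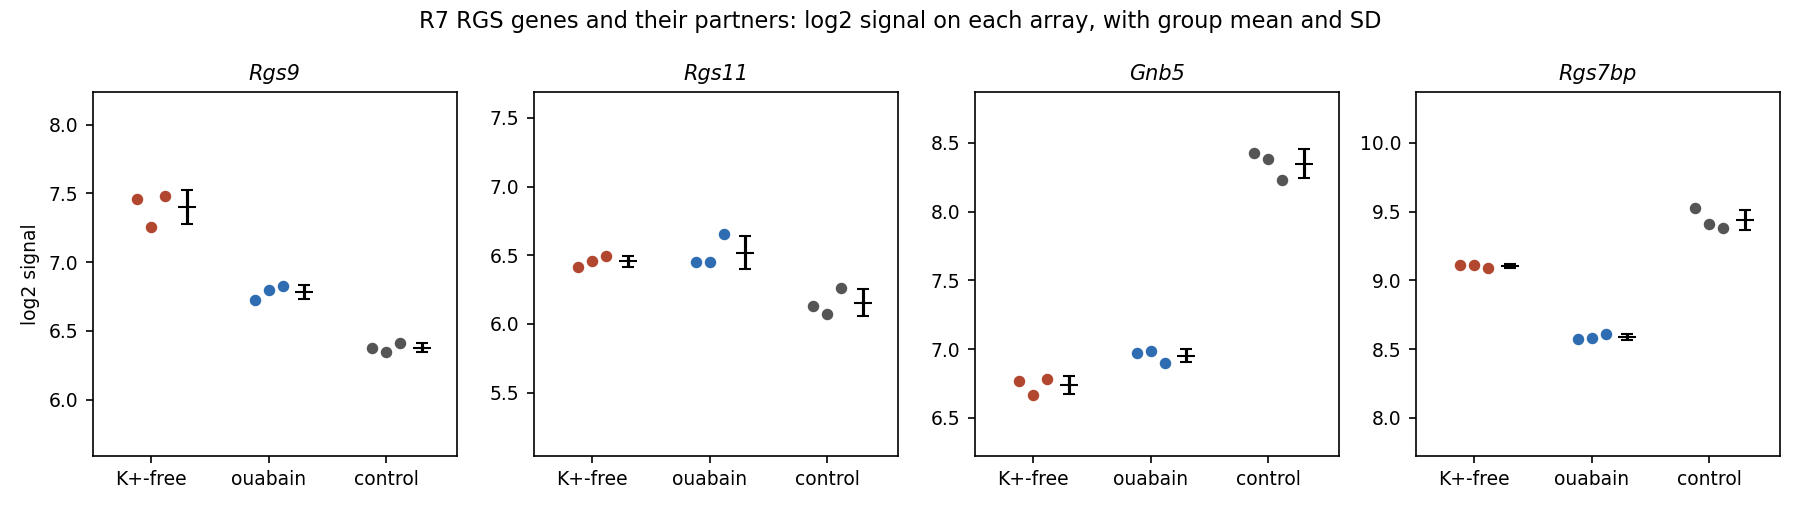
Log2 signal on each array of the R7 genes *Rgs9* and *Rgs11* and of their partners *Gnb5* and *Rgs7bp*, in K+-free medium (red), ouabain (blue) and control medium (grey), with the group mean and SD as bars. *Rgs9* and *Rgs11* lay above control in both treatments, and *Gnb5* and *Rgs7bp* below it.

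Of the 31 receptors of vascular smooth muscle measured of 36 listed, 16 rose and 3 fell in K+-free medium (median log2 change 0.28), and 11 rose and 4 fell in ouabain (0.19). Called rises with a mean signal below the array median were those of *Ptgir* (5.84) and *Adora2a* (5.89) in both treatments. In K+-free medium they also included *Adora2b* (5.50), *Bdkrb1* (5.54) and *Bdkrb2* (5.95), and in ouabain *Agtr2* (5.87). *Tbxa2r* (6.59), also below the median, fell in both treatments. *Htr2a* encodes a serotonin receptor that couples to Gq, the G protein that the *Rgs2* protein prefers. Its signal rose by 1.84 (limma adjusted p = 4.8e-10) in K+-free medium and by 1.63 (adjusted p = 2.1e-09) in ouabain. *Avpr1a*, the vasopressin receptor of vascular muscle, and *Lpar1*, a receptor for lysophosphatidic acid, rose less in K+-free medium (0.53 for *Avpr1a* and 0.59 for *Lpar1*) than in ouabain (1.30 for *Avpr1a* and 1.31 for *Lpar1*). K+-free medium minus ouabain was -0.77 for *Avpr1a* (limma adjusted p = 5.0e-06) and -0.72 for *Lpar1* (adjusted p = 0.00013), and *Rgs2* had the same order of conditions.

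*P2ry2*, a Gq-coupled receptor for ATP and UTP, went opposite ways, as *Rgs4* did, but with the signs reversed. It had 9.24, 8.99 and 9.12 in K+-free medium, 7.93, 7.37 and 7.63 in ouabain, and 8.23, 8.30 and 8.37 in control cells. The change was 0.81 in K+-free medium (limma adjusted p = 0.00017) and -0.66 in ouabain (adjusted p = 0.00090). *Agtr1a*, an angiotensin II receptor, fell by 0.75 in ouabain (limma adjusted p = 3.8e-07). *Ptger4*, a Gs-coupled prostaglandin E receptor, fell by 0.86 in K+-free medium and by 0.84 in ouabain.

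Among all 15 alpha subunit genes, the direct substrates of RGS proteins, 6 rose and 2 fell in K+-free medium (median 0.13), and 4 rose and 0 fell in ouabain (0.12). *Gnai1*, which encodes a Gi subunit that RGS proteins of all 3 subfamilies act on, rose by 0.68 (limma adjusted p = 5.7e-07) in K+-free medium and by 0.96 (adjusted p = 5.0e-08) in ouabain. *Gnat1*, the rod photoreceptor subunit, rose by 1.81 in K+-free medium and by 1.95 in ouabain, and *Gna13*, a subunit of the G12/13 class, by 0.50 in K+-free medium and by 0.49 in ouabain. *Gna11*, a Gq-family subunit, fell by 0.44 (limma adjusted p = 0.00024) in K+-free medium. Of the 14 beta and gamma genes measured of 16, 2 rose and 4 fell in K+-free medium (median -0.08), and 0 rose and 3 fell in ouabain (-0.05).

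Effectors of alpha subunits fell more often than they rose, with 2 up and 8 down of 18 measured in K+-free medium (median -0.15) and 2 up and 7 down in ouabain (-0.12). Single-symbol genes also fell more often than they rose, with 17.8% up and 24.0% down in K+-free medium and 17.5% up and 22.7% down in ouabain. *Plcb3*, a phospholipase C beta that Gq activates, fell by 2.14 (limma adjusted p = 5.6e-10) in K+-free medium and by 1.68 (adjusted p = 4.5e-09) in ouabain. Both arrestin genes, whose proteins uncouple receptors from G proteins, fell, *Arrb1* by 1.03 in K+-free medium and by 0.81 in ouabain, and *Arrb2* by 0.83 in K+-free medium and by 0.66 in ouabain.

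In the nitric oxide and cyclic nucleotide arm, whose kinase activates the *Rgs2* protein, 0 of 5 genes rose and 3 fell in either treatment. *Gucy1a1* and *Gucy1b1*, the subunits of soluble guanylyl cyclase, fell by 1.25 and 1.44 in K+-free medium and by 1.10 and 1.09 in ouabain (limma adjusted p = 1.0e-07 or smaller in each). The third gene that fell was *Prkaca* in K+-free medium (-0.47) and *Prkg1*, which encodes the cGMP-dependent kinase, in ouabain (-0.35). Neither of these was called in the other treatment. *Rgs2* signal rose in the same arrays.

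The N-degron enzymes mark the proteins of *Rgs4*, *Rgs5* and *Rgs16* for destruction, by arginylation of an oxidised N-terminal cysteine and then ubiquitination. Of 5 genes measured of 7, 2 rose and 1 fell in K+-free medium (median 0.09), and 1 rose and 1 fell in ouabain (0.10). *Ate1*, the arginyltransferase, fell by 0.86 (limma adjusted p = 2.1e-06) in K+-free medium and by 0.83 (adjusted p = 3.3e-06) in ouabain. *Ubr4*, a ubiquitin ligase, rose by 0.40 in K+-free medium and by 0.35 in ouabain, calls that were lost after centring on *B2m*. Protein levels were not measured on these arrays.

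All 14 other genes for proteins with an RGS domain were measured. In K+-free medium 1 rose and 6 fell (median -0.11), and in ouabain 3 rose and 6 fell (-0.08). *Grk6*, a receptor kinase, fell by 1.22 (limma adjusted p = 1.9e-08) in K+-free medium and by 0.82 (adjusted p = 4.2e-07) in ouabain, while *Grk5*, a kinase of the same family, rose by 0.53 in K+-free medium and by 0.68 in ouabain. *Axin2*, a Wnt pathway scaffold, rose by 0.69 in ouabain (adjusted p = 2.2e-06).

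Of 9 further regulators of alpha subunits measured of 11, 0 rose and 2 fell in K+-free medium (median 0.06), and 1 rose and 2 fell in ouabain (0.13). *Ric8a*, the chaperone and exchange factor of Gi, Gq and G13 subunits, fell by 1.07 (limma adjusted p = 1.0e-07) in K+-free medium and by 0.56 (adjusted p = 2.1e-05) in ouabain. The counts of all these lists stand beside the 41.7% of single-symbol genes called in K+-free medium, 17.8% up and 24.0% down. In ouabain 40.2% were called, 17.5% up and 22.7% down.

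**Figure D4:**
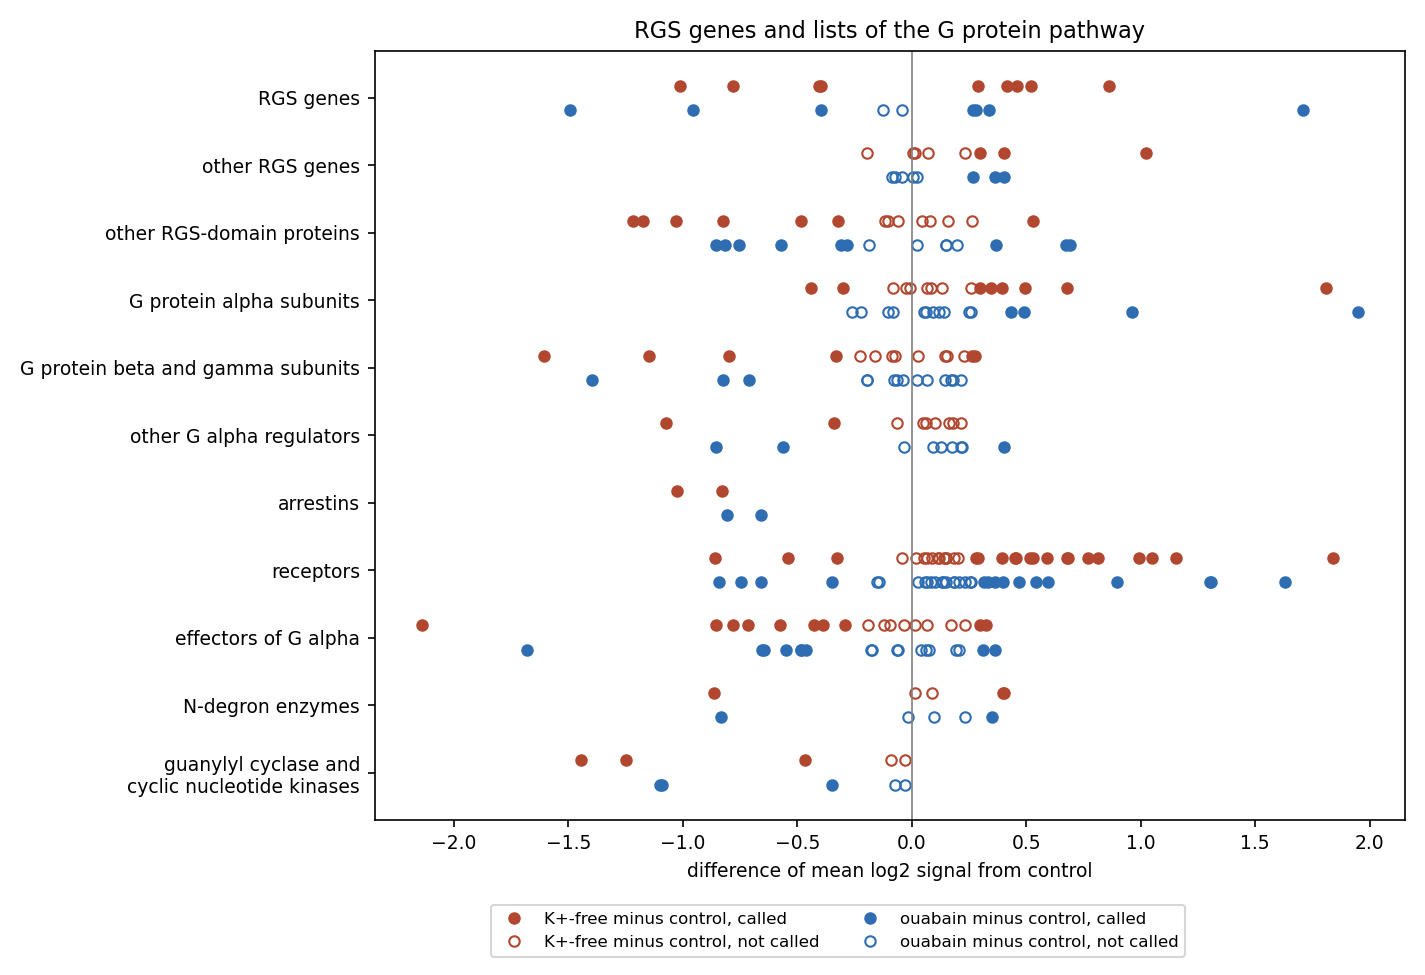
Difference of mean log2 signal from control for each measured gene of the RGS set and of 10 lists of the G protein pathway, in K+-free medium (red) and ouabain (blue). Filled points are called and open points are not. All 9 RGS genes are filled in K+-free medium and 7 in ouabain, and both arrestin genes lie below 0.

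By the distance over 9 arrays between log2 signals, each taken relative to the gene's own control mean, the 3 genes of 14323 nearest to *Rgs2* were *Acot12* (distance 0.42, Pearson r = 0.98), *Cfap141* (0.43, r = 0.98) and *Pgf* (0.47, r = 0.98). The 3 nearest to *Rgs19* were *Vps39* (0.21, r = 0.99), *Mrpl15* (0.22, r = 0.99) and *Elmod2* (0.24, r = 0.99). These values describe likeness over arrays that share their 3 conditions, and they were not tested.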

How the data were processed

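RNA of RASMC in K+-free medium, in ouabain and in control medium (3 samples each, grouped by the sample labels) was measured on 9 arrays. The authors deposited log2 values of 27342 probe sets, made with RMA, and the labels also name Partek, whose version is not stated in the sources used here. RMA subtracts a background, equalises the distributions of the arrays at the probe level and summarises probes. Dim signals are thereby compressed, and precision is limited by the number of arrays. The deposited probe set values were not equal in distribution, with array medians from 6.76 to 6.80, and repeating the quantile normalisation changed some calls. The methods state 3 independent experiments with conditions run in parallel, and how far p-values cover variation between cell preparations is not known. Of the probe sets, 15097 carry 1 symbol, 323 several and 11922 none, and 15067 matched a RefSeq gene. A gene was represented by its single-symbol probe set of highest mean.

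A model with a mean for each condition was fitted to the 9 arrays together with limma 3.58.1 (R 4.3.3, and the data.table package, version 1.17.8), with eBayes and Benjamini-Hochberg adjustment over 27341 varying probe sets. The fit was tested on simulated data. All RGS genes were named, with up to 3 genes per pathway list, direction and treatment and the 3 nearest to the most changed RGS genes. Some uncalled genes were named beside them. The members and lists were chosen with earlier results of these data known. Figures and motif counts used Python 3.11.15, pandas 2.3.3 and matplotlib 3.10.9. Alternatives were other scalings, filters, moderation, tests and fold limits, a replicate block and each array left out.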

Additional observations from a re-analysis of the deposited data

Results flagged for a closer look

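*Rgs4* went opposite ways in the treatments, with every K+-free array below and every ouabain array above the control arrays. The difference itself, K+-free medium minus ouabain, was -0.66 (limma adjusted p = 5.0e-06). *P2ry2* also went opposite ways, above control in K+-free medium and below it in ouabain on every array, and differed between the treatments by 1.47 (limma adjusted p = 7.1e-06).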

How the results depend on the processing

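Each of the 27 results on the 9 RGS genes was recomputed under 21 alternatives, which left 529 values on the same side of the call, 30 without it, 1 newly called and 7 with the sign turned. *Rgs2*, *Rgs12* and *Rgs19* against control, and *Rgs2* and *Rgs4* between the treatments, kept direction and call under all 21. With a fold above 1.5, the RGS genes called were 3 in K+-free medium, 3 in ouabain and 2 between the treatments, and the probe sets called were 4318 in K+-free medium, 3924 in ouabain and 1149 between the treatments. Quantile normalisation called 4 RGS genes in ouabain and turned *Rgs3* (0.10) and *Rgs16* (0.068) there, with no call. The methods' t-test called 2896 probe sets between the treatments and, after Benjamini-Hochberg adjustment, lost *Rgs14* in ouabain (adjusted p = 0.11). Leaving out 1 array at a time gave 8 to 9 RGS genes called in K+-free medium, 5 to 7 in ouabain and 5 between the treatments, and called 8864 to 9538 probe sets in K+-free medium, 8438 to 9703 in ouabain and 4291 to 4639 between the treatments. The uncalled differences between the treatments ranged from -0.048 to 0.085 for *Rgs14* and from -0.032 to 0.017 for *Rgs17*, with signs that turned when K_Free replicate 3 (-0.0007 for *Rgs14*, 0.0085 for *Rgs17*), Ouabain replicate 1 (-0.014 for *Rgs14*, 0.017 for *Rgs17*) or Ouabain replicate 2 (-0.048 for *Rgs14*) was left out. The cause of these changes was not tested.

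Samples with the same replicate number correlated at r = -0.05 to 0.31 in their deviations from the condition means, with 4 of 9 pairs over 0.1, and 7 of 9 arrays correlated best with one of their own number. The methods state that conditions were run in parallel within each experiment but do not tie the numbers to experiments. Pairing by replicate number is therefore a hint from the data. With the replicate block, 9 RGS genes were called in K+-free medium, 7 in ouabain and 5 between the treatments, as without it. Mean signals below the array median limit what can be seen of the size of the changes in *Rgs12* and *Rgs14*.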

Other observations

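Over the pathway genes with the largest changes of each list that were followed through the alternatives, not all of which are named above, 1639 values kept their call or lack of it and 41 lost it, with 0 signs turned, counting each alternative of each gene and comparison.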
